A study of Gallus gallus and Dromaius novaehollandiae with 40 samples.

Results

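The solute carriers are the largest group of membrane transport proteins in vertebrates, and their genes carry symbols of the form SLC, a family number, the letter A and a member number. They are described here in early forelimb-level tissue of 2 birds, the chick (Gallus gallus) and the flightless emu (Dromaius novaehollandiae), whose wing starts to grow late. The early count tables of both species list the same 12338 genes. Of these, 219 have a symbol of that form, and the 185 with at least 100 counts summed over all 17 early libraries are the genes described. Just outside that limit lay SLC28A2 with 83 counts and SLC1A6 with 87, and just inside it SLC5A11 with 123 and SLC16A8 with 131. The symbol pattern also takes in 4 genes that are named after a carrier but are no transporters (SLC4A1AP, SLC7A6OS, SLC9A3R1 and SLC9A3R2), and counts over the 185 members include them. Carriers whose symbols have another letter, such as most nucleotide sugar carriers of family 35, are not covered.

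Solute carriers move sugars, amino acids, organic acids, nucleosides, vitamins, metals and ions across membranes, either down a gradient or coupled to the movement of sodium, protons or a counter-substrate. A large family sits in the inner mitochondrial membrane and links the metabolism of the mitochondrion to that of the cytosol. Many carriers are best known from absorptive epithelia such as gut, kidney and yolk sac, while others, such as the glucose carrier of SLC2A1 and the lactate carrier of SLC16A1, are found in most growing tissues.

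Stages are those of Hamburger and Hamilton (HH). The lateral plate mesoderm before it splits was sampled at HH10, and the outer layer (somatopleure, from which the limb bud grows) and the inner layer (splanchnopleure, on the gut side) at HH13. The exceptions are emu lateral plate 1, labelled HH13, and emu somatopleure 13, labelled HH10. Apart from these libraries, tissue and stage change together, so a layer set against the lateral plate is also a later stage set against an earlier one. The chick gave 3 libraries per tissue, and the emu gave 3 of lateral plate, 3 of somatopleure and 2 of splanchnopleure, of which 1 is labelled a pool. The labels name no treatment, genotype or strain. They do not say whether libraries of a tissue came from separate embryos, so p-values measure the spread between these libraries, which may be technical.

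Libraries held 5061393 to 8348865 counts in the chick and 7350786 to 8601471 in the emu. The 185 members took 0.791% to 0.866% of the counts of a chick library and 0.909% to 1.03% of an emu library. Some libraries stood apart from others of their tissue. TBX5, a gene of the forelimb field, was at 10.8, 6.96 and 76.9 CPM (counts relative to library size, after TMM scaling) in emu somatopleure 13, 53 and 5. The chick somatopleure libraries lay closer together, at 142, 125 and 130.4 CPM. Chick splanchnopleure 61 had 31.4 CPM summed over 2 nephric markers and 415 CPM over 8 surface ectoderm markers, against 3.31 and 4.61 CPM and 164 and 189 CPM in splanchnopleure 50 and 64. Chick somatopleure 15 had 37.8 CPM summed over the 2 measured blood markers, KLF1 and GFI1B, against 1.40 and 1.97 CPM in somatopleure 60 and 63. Emu splanchnopleure 6 and pool also differed from each other. TBX5 was at 1.93 CPM in the former and 25.2 CPM in the pool. The sum over 5 somatic mesoderm markers was 12.2 and 86.2 CPM, and that over 13 endothelial markers 2230 and 1120 CPM. Calls of named carriers are therefore given with what became of them when single libraries were left out.

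Genes called higher (risen) or lower (fallen) in the tissue named first are those with an adjusted p under 0.05 in edgeR's quasi-likelihood F test, adjusted over all genes tested by the Benjamini-Hochberg method. Fold changes are given on the log2 scale as value ± SE, and levels are CPM, scaled within a species and therefore not compared between genes or species. The SE was worked back from the test, as the absolute log2 fold change over the square root of the F statistic. It was not estimated separately. A call is said to have held when it was made again in every fit that left out 1 library of the tissues compared. Counts of called members in such fits are given without the share of all genes called in the same fit. Whether a lower count is particular to the members is therefore not shown. Many of the carriers named below were chosen among calls whose tissues did not overlap, so that absence of overlap in them describes the values and is no support for the call. The filter on low counts can be passed through a single tissue. Low-level members that are high in a single tissue can therefore be tested, while those low in every tissue are not. In bulk tissue, fewer cells of a type and less RNA per cell cannot be told apart, and this applies to every value below.

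In chick, 162 of the 185 members passed the filter on low counts. Against the lateral plate, 7 members rose and 18 fell in chick somatopleure, which is 15.4% of those tested, where 9.8% of all genes tested were called, and the falls alone were 11.1%, beside 6.28% (3.52% of all genes rose). Of the 7, SLC9A3R2 is no transporter, so that 6 carriers rose. Without lateral plate 30 the count was 16, and 11 of the 25 calls held. In chick splanchnopleure 14 rose and 18 fell against the lateral plate, or 19.8%, beside 16.9% of all genes (9.07% rose and 7.78% fell), and 17 of those that fell are carriers, the other being SLC4A1AP. That count was 15 without lateral plate 30, 18 without lateral plate 32 and 17 without splanchnopleure 64, and 14 calls held. Between the layers, 10 members were higher and 22 lower in chick somatopleure than in splanchnopleure (19.8%, beside 19.1% of all genes, where 7.34% were higher and 11.8% lower), and 19 of these calls held. As among all genes, more members fell than rose in somatopleure in both of its comparisons.

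In emu, 182 members were tested. None was called in emu somatopleure against lateral plate (0% of all genes were called), where edgeR gave 31 members an unadjusted p under 0.05 (17%, beside 10.4% of all genes) and DESeq2 called 6 (3.3%, beside 1.32%), among them SLC16A1, SLC28A3, SLC44A5, SLC5A1 and SLC6A14. In emu splanchnopleure 19 members rose and 9 fell against the lateral plate, which is 15.4%, beside 20.6% of all genes (11.4% rose and 9.21% fell). Leaving out 1 library moved that count to 10 without lateral plate 1, 17 without lateral plate 23, 11 without lateral plate 8 and 6 without splanchnopleure 6, and 5 calls held. It was 9 without both libraries whose stage label differs from the rest of their tissue, lateral plate 1 and somatopleure 13. Between the emu layers 2 members were higher and 17 lower in somatopleure (10.4%, beside 13.4% of all genes, where 5.05% were higher and 8.34% lower). That count was 12 without somatopleure 13 and 7 without splanchnopleure 6, and 6 calls held. The members' shares were above the background share in the 3 chick comparisons, though close to it between the layers, and below it in both emu comparisons with splanchnopleure. These gaps were not tested.

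**Figure D1:**
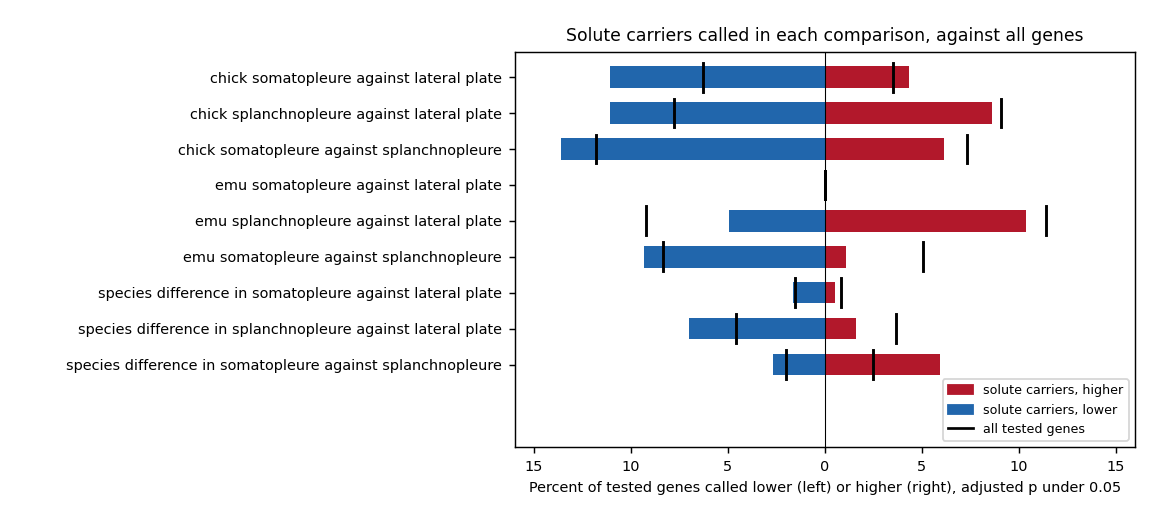
Share of tested genes called lower (bars to the left) or higher (bars to the right) in the first tissue of each comparison. The horizontal axis is in percent, with the solute carrier members as bars and all tested genes as black ticks. For a species difference, higher means a larger log2 fold change in chick than in emu; emu somatopleure against lateral plate has no call in any gene.

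The first principal component of the members' levels ordered the libraries by tissue in both species. This component of log2 CPM (prior count 2) took 50.4% of the variance over 162 members in chick and 51.3% over 182 in emu. In chick the somatopleure lay between -7.27 and -5.22 on it, the lateral plate between -1.10 and 1.64, and the splanchnopleure between 5.90 and 7.29. In emu the corresponding ranges were -9.74 to -3.24, -1.05 to 1.45, and 7.85 to 8.84. SLC2A2 had the largest loading in each species (0.50 in chick and 0.39 in emu). It was followed by SLC12A1 (0.41) and SLC7A9 (0.34) in chick and SLC28A3 (0.36) and SLC30A10 (0.29) in emu. A few members therefore carried much of this component, and it does not describe all members evenly. The tissues thus fell in the same order in both species, with the lateral plate between the layers. Over all genes tested the first component took 42.4% of the variance in chick, with the tissues in the same order (-40.8 to -34.6, -7.69 to 4.02, and 34.2 to 49.7). In emu it took 49.2%, and there the lateral plate (-38.8 to -15.9) and the somatopleure (-23.3 to -11.2) overlapped, while the splanchnopleure lay apart (55.03 to 73.1).

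**Figure D2:**
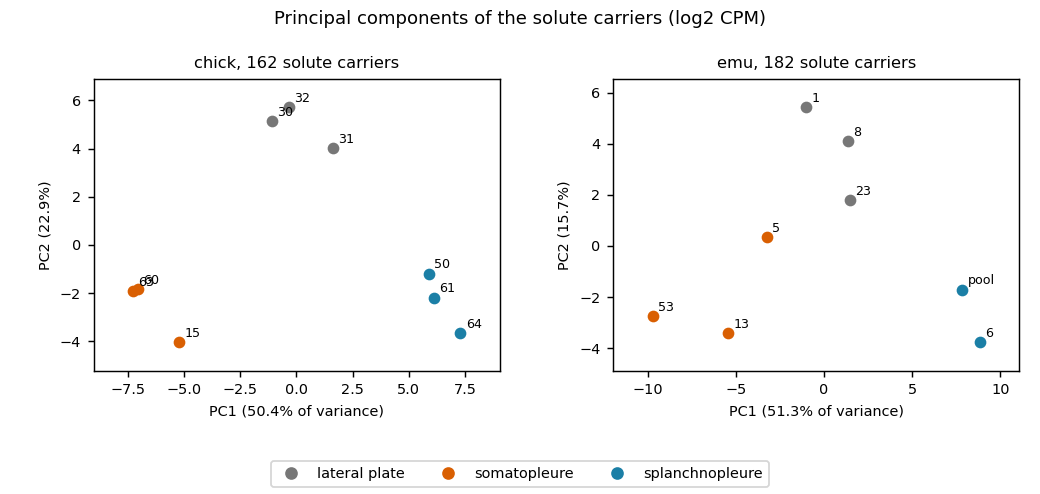
First and second principal components of the log2 CPM of the tested solute carrier members in chick (162 members) and emu (182 members). Each point is a library, labelled with its number and coloured by tissue. Somatopleure, lateral plate and splanchnopleure follow each other along the first component in both panels.

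Among the sugar carriers, SLC2A2 was lower in somatopleure than in splanchnopleure in both species, and the widespread glucose carrier SLC2A1 fell in both later chick layers. Classes, here and below, were set by SLC family number and not by the known substrate of each member, so a class can hold carriers of other substrates. Of 17 sugar carriers tested in chick, 4 rose and 1 fell in splanchnopleure against lateral plate (29.4%, beside 16.9% of all genes), 0 rose and 3 fell in somatopleure against lateral plate (17.6%, beside 9.8%), and 0 were higher and 4 lower in somatopleure than in splanchnopleure (23.5%, beside 19.1%). Of 20 tested in emu, 4 rose and 0 fell in splanchnopleure against lateral plate (20%, beside 20.6%), and 0 were higher and 4 lower in somatopleure than in splanchnopleure (20%, beside 13.4%). The median log2 fold change of the sugar carriers in emu splanchnopleure against lateral plate was 0.46, against 0.00 over all genes tested, and in chick it was 0.05, against 0.01.

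SLC2A2 encodes GLUT2, the low-affinity glucose carrier of liver, gut and kidney epithelium. Its level in chick lateral plate was 6.54, 18.1 and 9.61 CPM, in somatopleure 0.2496, 0.509 and 0.123 CPM, and in splanchnopleure 36.4, 46.9 and 66.3 CPM. No tissue overlapped another, and in chick somatopleure SLC2A2 was close to 0 in every library. It fell in chick somatopleure against lateral plate (log2 -5.20 ± 0.58, adjusted p = 0.000295), rose in splanchnopleure against lateral plate (2.13 ± 0.35, adjusted p = 0.00352), and was lower in somatopleure than in splanchnopleure (-7.34 ± 0.54, adjusted p = 1.46e-05), and each of these calls held. Emu lateral plate had 5.03, 20.9 and 11.8 CPM, emu somatopleure 3.39, 0 and 0.657 CPM and emu splanchnopleure 32.1 and 54.3 CPM. As in chick, all emu somatopleure libraries were below all others, and SLC2A2 was lower there than in splanchnopleure (-4.96 ± 0.92, adjusted p = 0.0125), a call that held, while the emu splanchnopleure did not pass the test against lateral plate (1.78 ± 0.78, adjusted p = 0.134).

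The markers of gut endoderm moved in part with these values. Summed over 5 measured markers (SOX17, FOXA2, HHEX, HNF4A and IHH), the level was 50.1 to 63.2 CPM in chick lateral plate, 5.99 to 10.7 CPM in somatopleure, where IHH was at 0 in every library, and 48.2 to 64.7 CPM in splanchnopleure. In emu it was 23.7 to 45.6, 15.8 to 34.8 and 77.0 to 79.3 CPM in the same order. Of the markers tested, 3 of 4 were lower in chick somatopleure than in either other tissue and 3 of 5 were lower in emu somatopleure than in splanchnopleure. Between chick splanchnopleure and lateral plate, where SLC2A2 rose, none of the 4 was called (median log2 fold change 0.22) and the summed ranges overlapped. By library the sum was 63.2, 54.1 and 50.1 CPM in chick lateral plate and 57.2, 48.2 and 64.7 CPM in splanchnopleure. FOXA2 and IHH make up part of it. FOXA2 was at 5.20, 9.93 and 8.21 CPM in chick lateral plate and 13.5, 16.7 and 8.87 CPM in splanchnopleure. IHH was at 0.726, 3.85 and 4.21 CPM and at 3.76, 3.98 and 5.56 CPM, and the tissues overlapped for both genes. In emu splanchnopleure 1 of 5, IHH, rose against lateral plate.

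Markers of other tissues also moved. The 13 endothelial markers summed to 964 to 1218 CPM in chick lateral plate, 268 to 431 CPM in somatopleure and 1076 to 1570.0 CPM in splanchnopleure, and to 523 to 663, 279 to 637 and 1120.4 to 2230 CPM in emu. In chick somatopleure 10 of them fell against lateral plate and 10 were lower than in splanchnopleure. In emu 10 rose in splanchnopleure against lateral plate and 11 were lower in somatopleure than in splanchnopleure, counts that were 0 and 1 without splanchnopleure 6. SLC2A2, SLC7A9, SLC6A14 and SLC28A3 were also called in both chick comparisons of somatopleure and between the emu layers. Of 8 surface ectoderm markers, 5 fell in emu splanchnopleure against lateral plate and 5 were higher in emu somatopleure than in splanchnopleure, and each count was 2 without splanchnopleure 6. In chick none of the 8 was called, whereas without splanchnopleure 61 5 of them fell in splanchnopleure against lateral plate and 7 were higher in somatopleure than in splanchnopleure. Of 4 somite markers, 3 fell in each chick layer against lateral plate, while 1 rose in chick splanchnopleure. Of the markers of the layers themselves, in chick 5 of 5 somatic mesoderm markers were higher and 4 of 6 splanchnic mesoderm markers lower in somatopleure than in splanchnopleure, and in emu 1 of 5 and 1 of 6. The part of endoderm, endothelium, surface ectoderm and somite in the carrier results was not tested.

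Further hexose carriers passed the test in chick. SLC2A9, which carries urate as well as hexoses, was at 1.57, 1.93 and 1.001 CPM in chick lateral plate and 4.51, 7.196 and 9.35 CPM in splanchnopleure, and it rose (2.19 ± 0.41, adjusted p = 0.00598), a call that held. SLC2A5, the fructose carrier GLUT5, was at 0.2496, 0 and 0.123 CPM in chick somatopleure and 2.85, 1.84 and 3.08 CPM in splanchnopleure, and was lower in somatopleure (-4.20 ± 0.70, adjusted p = 0.0019), which held. Both are low-level genes, and SLC2A5 was close to 0 in chick somatopleure, so the size of its fold change is uncertain. In emu SLC2A9 did not pass the filter on low counts, and SLC2A5 did not differ between the layers by the test (-0.69 ± 0.47, adjusted p = 0.358).

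In emu the sodium-coupled glucose carriers SLC5A1 and SLC5A9 were lower in somatopleure than in splanchnopleure. SLC5A1, which encodes SGLT1, the carrier that takes up glucose in the gut, was at 13.1, 22.04 and 18.98 CPM in emu lateral plate, 8.92, 4.92 and 6.05 CPM in somatopleure and 39.6 and 58.6 CPM in splanchnopleure. The groups did not overlap. SLC5A1 was lower in emu somatopleure than in splanchnopleure (-2.88 ± 0.32, adjusted p = 0.00246), which held, and rose in splanchnopleure against lateral plate (1.44 ± 0.30, adjusted p = 0.0135), a call lost without splanchnopleure pool (adjusted p = 0.0765). SLC5A9, a related carrier of mannose and glucose, was at 0.126, 0 and 0.131 CPM in emu somatopleure and 3.61 and 2.07 CPM in splanchnopleure (-4.79 ± 0.79, adjusted p = 0.00742), and that call was lost without splanchnopleure 6 (adjusted p = 0.0723). The emu somatopleure level of SLC5A9 was close to 0, so the size of its fold change is uncertain. In chick neither SLC5A1 nor SLC5A9 was called in any tissue comparison, and chick SLC5A1 was between 4.55 and 9.19 CPM in all libraries. The difference between species in somatopleure against splanchnopleure was called for SLC5A1 (chick minus emu 2.48 ± 0.44, adjusted p = 0.005) and held.

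SLC2A1, which encodes GLUT1, was at 184, 154 and 170.2 CPM in chick lateral plate, 113, 113 and 137 CPM in somatopleure and 98.4, 111 and 95.1 CPM in splanchnopleure. Every library of the later layers was below every lateral plate library. It fell in splanchnopleure against lateral plate (-0.74 ± 0.11, adjusted p = 0.002), which held, and in somatopleure (-0.49 ± 0.11, adjusted p = 0.0168), a call lost without any 1 of lateral plate 30 and 32 and somatopleure 60 (adjusted p = 0.0604 to 0.0823). In emu SLC2A1 was at 139, 196 and 136, then 128, 113 and 131, then 120.1 and 106 CPM in the same tissue order, and splanchnopleure against lateral plate did not pass the test (-0.47 ± 0.17, adjusted p = 0.0854). SLC2A3, the high-affinity glucose carrier GLUT3, was at 10.2, 12.1 and 10.46 CPM in chick somatopleure and 20.6, 17.8 and 17.7 CPM in splanchnopleure. It was lower in somatopleure than in splanchnopleure (-0.77 ± 0.17, adjusted p = 0.00837), which held, and its fall against lateral plate (-0.81 ± 0.17, adjusted p = 0.0108) was lost without lateral plate 30 (adjusted p = 0.0545).

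**Figure D3:**
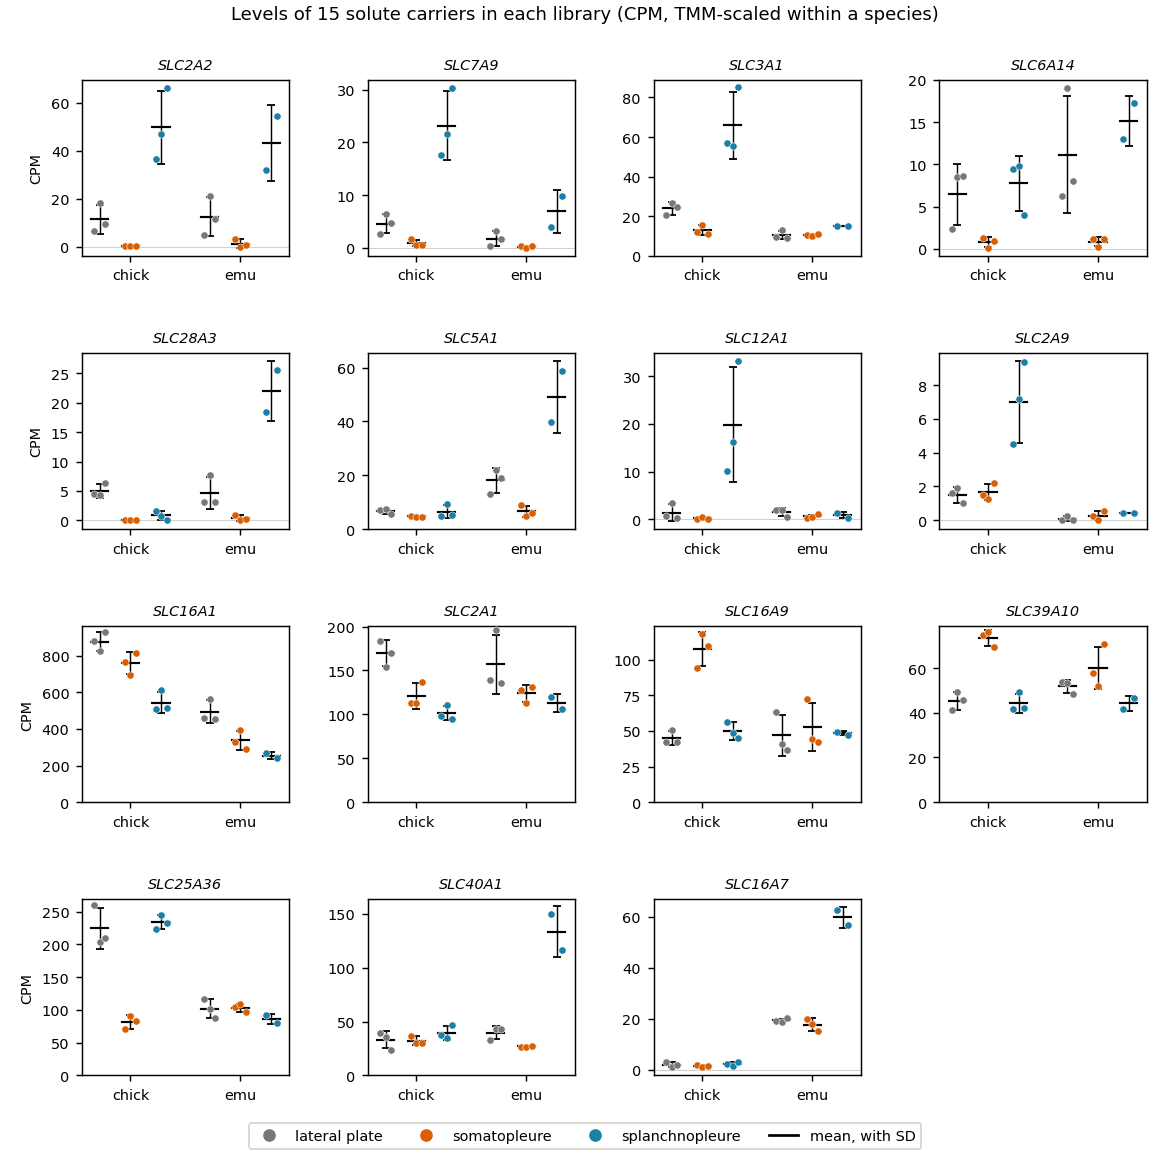
Levels of 15 solute carriers in each library, in CPM on a linear vertical axis, for chick (left in each panel) and emu (right); points are libraries coloured by tissue, and the line and bar give the mean and SD over 3 libraries (2 in emu splanchnopleure). The means of SLC2A2, SLC7A9 and SLC6A14 were lowest in somatopleure in both species, although emu SLC7A9 overlapped between somatopleure and lateral plate. SLC12A1 was high in chick splanchnopleure and SLC40A1 and SLC16A7 in emu splanchnopleure.

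Amino acid carriers were called in both directions. Of 24 tested in chick, 5 rose and 4 fell in splanchnopleure against lateral plate (37.5%, beside 16.9% of all genes, where 9.07% rose and 7.78% fell). In chick somatopleure 1 rose and 4 fell against lateral plate (20.8%, beside 9.8%), and 2 were higher and 5 lower than in splanchnopleure (29.2%, beside 19.1%). In emu 3 of 30 rose and 2 fell in splanchnopleure against lateral plate (16.7%, beside 20.6%), and 0 were higher and 3 lower in somatopleure than in splanchnopleure (10%, beside 13.4%). The members that rose in chick splanchnopleure include both chains of one transporter: SLC7A9 and SLC3A1 encode the light and heavy chain of the cystine and dibasic amino acid carrier of kidney and gut.

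SLC7A9 was at 2.66, 6.38 and 4.81 CPM in chick lateral plate, 1.62, 0.509 and 0.616 CPM in somatopleure and 17.6, 21.6 and 30.4 CPM in splanchnopleure. SLC3A1 was at 20.5, 26.8 and 24.8 CPM, 12.2, 15.8 and 11.2 CPM and 57.1, 55.3 and 85.2 CPM in the same tissues. For both chains the order was the same, with no overlap between any pair of tissues. In splanchnopleure against lateral plate SLC7A9 rose by 2.34 (adjusted p = 0.00365) and SLC3A1 by 1.46 on the log2 scale (adjusted p = 0.00149), and both calls held, as did those of somatopleure against splanchnopleure (-4.64 ± 0.46, adjusted p = 8.48e-05 for SLC7A9, and -2.33 ± 0.21, adjusted p = 4.39e-05 for SLC3A1). The falls in chick somatopleure against lateral plate (-2.30 ± 0.49, adjusted p = 0.0126, and -0.88 ± 0.21, adjusted p = 0.0246) were lost without somatopleure 60 (adjusted p = 0.0518) for SLC7A9, and without any 1 of lateral plate 31 and 32 and somatopleure 15 and 63 (adjusted p = 0.0573 to 0.0847) for SLC3A1.

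In emu SLC7A9 was called between the layers and SLC3A1 was not. SLC7A9 was at 0.343, 3.201 and 1.59 CPM in emu lateral plate, 0.377, 0 and 0.263 CPM in somatopleure and 3.996 and 9.83 CPM in splanchnopleure. It was lower in somatopleure than in splanchnopleure (-4.89 ± 1.005, adjusted p = 0.0179), a call lost without splanchnopleure pool (adjusted p = 0.0658). SLC3A1 was between 9.18 and 15.1 CPM in all emu libraries, and the layers did not pass the test (-0.53 ± 0.24, adjusted p = 0.174). The species difference in somatopleure against splanchnopleure was called for SLC3A1 (-1.75 ± 0.31, adjusted p = 0.00517) and held.

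SLC6A14, a sodium- and chloride-coupled carrier of neutral and basic amino acids, was low in somatopleure in both species. Chick levels were 2.2996, 8.45 and 8.61 CPM in lateral plate, 1.25, 0.127 and 0.985 CPM in somatopleure and 9.47, 9.799 and 4.02 CPM in splanchnopleure. Emu levels were 6.28, 19.1 and 8.08, then 1.13, 0.273 and 1.18, then 13.02 and 17.2 CPM. Lateral plate and splanchnopleure overlapped in each species, and somatopleure lay below both. Somatopleure was lower than splanchnopleure in chick (-3.26 ± 0.69, adjusted p = 0.00732) and in emu (-4.10 ± 0.62, adjusted p = 0.00565), and both calls held. Against lateral plate the chick fall (-2.98 ± 0.69, adjusted p = 0.0198) was lost without any 1 of lateral plate 31 and 32 and somatopleure 60 (adjusted p = 0.0576 to 0.0729), and the emu value did not pass edgeR's test (-3.66 ± 0.59, adjusted p = 0.192).

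SLC38A3, a glutamine carrier and a low-level gene in chick, was at 0.125, 0 and 0.246 CPM in chick somatopleure and 2.103, 2.76 and 2.48 CPM in splanchnopleure. It was lower in somatopleure (-4.12 ± 0.85, adjusted p = 0.00641), which held, but the level there was close to 0, so the size of the fold change is uncertain. SLC6A15, a carrier of branched-chain amino acids, went the other way, with 48.3, 55.5 and 51.3 CPM in chick somatopleure and 23.7, 24.3 and 26.03 CPM in splanchnopleure (1.06 ± 0.15, adjusted p = 0.000767), which also held. The cationic amino acid carrier SLC7A3 was at 145, 119.6 and 145 CPM in chick lateral plate and 84.6, 89.6 and 85.1 CPM in splanchnopleure, where it fell (-0.66 ± 0.11, adjusted p = 0.00395), and this call held. None of these 3 was called in emu. In emu somatopleure 13, labelled HH10, SLC7A3 stood at 153 CPM, against 27.3 and 37.1 CPM in the other libraries of that tissue.

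SLC38A1, a carrier of glutamine, fell in splanchnopleure against lateral plate in chick (-0.44 ± 0.12, adjusted p = 0.0299) and emu (-1.29 ± 0.37, adjusted p = 0.041). Those calls were lost without any 1 of lateral plate 30 and 32 and splanchnopleure 50, 61 and 64 (adjusted p = 0.0511 to 0.128) in chick and without any 1 of lateral plate 1, 23 and 8 and splanchnopleure 6 and pool (adjusted p = 0.0503 to 0.235) in emu.

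Of the monocarboxylate and other organic acid carriers, SLC16A1 and SLC16A3, which encode the proton-linked lactate carriers MCT1 and MCT4, fell in splanchnopleure against lateral plate in both species. In chick 1 of 11 of these carriers rose and 3 fell in that comparison (36.4%, beside 16.9% of all genes), and in emu 6 of 13 rose and 2 fell (61.5%, beside 20.6%). The emu median of the group was 0.70, against 0.00 over all genes tested, while the chick median was 0.00, against 0.01. In chick somatopleure 2 rose and 2 fell against lateral plate (36.4%, beside 9.8%), and 2 were higher and 2 lower than in splanchnopleure (36.4%, beside 19.1%). Between the emu layers 0 were higher and 3 lower in somatopleure (23.1%, beside 13.4%).

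SLC16A1 was at 879, 826 and 927 CPM in chick lateral plate, 767, 695 and 814 CPM in somatopleure and 507, 611 and 515 CPM in splanchnopleure. Emu lateral plate had 461, 566 and 453 CPM, somatopleure 332, 392 and 289.8 CPM and splanchnopleure 269 and 241 CPM. In both species the tissues followed each other in that order without overlap. The fall in splanchnopleure was -0.69 ± 0.09, adjusted p = 0.00107 in chick and -0.95 ± 0.16, adjusted p = 0.00653 in emu, and both calls held. SLC16A3 was at 24.2, 27.7 and 28.04 CPM in chick lateral plate and 12.8, 11.8 and 13.96 CPM in splanchnopleure (-1.05 ± 0.20, adjusted p = 0.0066), which held. Its fall in emu splanchnopleure (-0.59 ± 0.16, adjusted p = 0.0353) was lost without any 1 of lateral plate 1, 23 and 8 and splanchnopleure 6 (adjusted p = 0.0505 to 0.249). A partner protein of both carriers, BSG (basigin), was not called in splanchnopleure against lateral plate (0.23 ± 0.08, adjusted p = 0.0604 in chick, and 0.43 ± 0.16, adjusted p = 0.0938 in emu).

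In chick somatopleure SLC16A9 and SLC16A14 rose against lateral plate. SLC16A9, a carrier of carnitine and other organic acids, was at 42.4, 50.9 and 42.1 CPM in chick lateral plate, 94.5, 118 and 109 CPM in somatopleure and 56.5, 48.7 and 44.7 CPM in splanchnopleure. It was higher in somatopleure than in lateral plate (1.25 ± 0.13, adjusted p = 0.000229) and than in splanchnopleure (1.10 ± 0.13, adjusted p = 0.000238), and both calls held. In emu the 3 tissues overlapped (36.4 to 72.3 CPM) and no comparison was called. SLC16A14, a member of the family with few known substrates, was at 4.599, 4.596 and 3.004 CPM in chick lateral plate and 10.6, 13.6 and 13.3 CPM in somatopleure (1.5999 ± 0.29, adjusted p = 0.00503), which held. SLC16A14 also rose in chick splanchnopleure against lateral plate, and it was not called between the chick layers. The splanchnopleure call was lost without any 1 of lateral plate 30, 31 and 32 and splanchnopleure 61 and 64 (adjusted p = 0.0653 to 0.117). Emu SLC16A14 was not called in any tissue comparison.

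In emu splanchnopleure SLC16A7 and SLC16A12 rose against lateral plate. SLC16A7, which encodes the pyruvate and lactate carrier MCT2, was at 19.1, 18.96 and 20.2 CPM in emu lateral plate, 20.1, 18.02 and 15.3 CPM in somatopleure and 62.7 and 56.9 CPM in splanchnopleure. It rose against lateral plate (1.62 ± 0.16, adjusted p = 0.00206) and was higher than in somatopleure (somatopleure against splanchnopleure -1.75 ± 0.16, adjusted p = 0.00229), and both held. SLC16A12, which carries creatine, was at 8.797, 21.1 and 18.9 CPM in emu lateral plate and 50.3 and 62.2 CPM in splanchnopleure (1.79 ± 0.32, adjusted p = 0.00755), which held. In chick SLC16A7 was at 1.02 to 3.27 CPM in all libraries and was not called, and SLC16A12 was at 15.98, 16.5 and 11.02 CPM in lateral plate and 9.62, 3.98 and 9.94 CPM in splanchnopleure (-0.88 ± 0.45, adjusted p = 0.205). The species difference of SLC16A12 in splanchnopleure against lateral plate was called (-2.69 ± 0.60, adjusted p = 0.0148) and held.

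SLC16A6, known in zebrafish as a carrier of ketone bodies, was at 147, 129 and 137 CPM in chick lateral plate and 72.7, 108 and 81.9 CPM in splanchnopleure, and in emu at 100.3, 93.7 and 76.05 CPM and 134 and 159.9 CPM. The splanchnopleure was thus lower than lateral plate in all chick libraries and higher in all emu libraries. It fell in chick (-0.66 ± 0.14, adjusted p = 0.00975), which held, and rose in emu (0.70 ± 0.19, adjusted p = 0.0291), a call lost without any 1 of lateral plate 1, 23 and 8 and splanchnopleure 6 and pool (adjusted p = 0.057 to 0.133). The species difference was called (-1.38 ± 0.23, adjusted p = 0.00356) and held. SLC13A3, a sodium-coupled carrier of dicarboxylates, was at 6.53, 5.46 and 3.16 CPM in emu somatopleure and 32.1 and 18.2 CPM in splanchnopleure (-2.31 ± 0.38, adjusted p = 0.00737), and this was lost without splanchnopleure 6 (adjusted p = 0.0795).

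SLC28A3, which encodes the concentrative nucleoside carrier CNT3, changed in opposite directions in the splanchnopleure of the species. Chick lateral plate had 4.48, 4.2996 and 6.41 CPM and chick splanchnopleure 1.65, 0.766 and 0.118 CPM, and in chick somatopleure it had 0 counts in all 3 libraries, where lateral plate had 98. Emu lateral plate had 3.199, 7.76 and 3.06 CPM, somatopleure 1.005, 0 and 0.263 CPM and splanchnopleure 18.4 and 25.6 CPM. Somatopleure was thus lowest in both species, but splanchnopleure was below lateral plate in chick and above it in emu. Against a floor of 3 counts per library, chick somatopleure was at least 13.5-fold lower than lateral plate (adjusted p = 0.00275), which held, and at least 2.25-fold lower than splanchnopleure (adjusted p = 0.0301), a call lost without any 1 of somatopleure 15, 60 and 63 and splanchnopleure 50 (adjusted p = 0.0506 to 0.0706). The emu somatopleure was lower than splanchnopleure (-5.62 ± 0.78, adjusted p = 0.00471), which held.

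In splanchnopleure against lateral plate SLC28A3 fell in chick (-2.60 ± 0.66, adjusted p = 0.0279) and rose in emu (2.24 ± 0.63, adjusted p = 0.0366). The chick call was lost without any 1 of lateral plate 30, 31 and 32 and splanchnopleure 61 and 64 (adjusted p = 0.0568 to 0.0967), and the emu call without any 1 of lateral plate 1 and 8 and splanchnopleure 6 and pool (adjusted p = 0.114 to 0.138). The test of the difference between species was passed (-4.85 ± 0.99, adjusted p = 0.0109), and it held in every fit that left out 1 of the libraries. The other 3 nucleoside carriers were called in no tissue comparison.

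Among carriers for ion exchange and pH, SLC12A1 rose in chick splanchnopleure. Of 26 tested in chick, 0 rose and 1 fell in somatopleure against lateral plate (3.85%, beside 9.8% of all genes), 2 rose and 1 fell in splanchnopleure against lateral plate (11.5%, beside 16.9%), and 2 were higher and 4 lower in somatopleure than in splanchnopleure (23.1%, beside 19.1%). In emu 3 of 28 rose and 0 fell in splanchnopleure against lateral plate (10.7%, beside 20.6%), and 1 was higher and 3 lower in somatopleure than in splanchnopleure (14.3%, beside 13.4%). SLC12A1, the sodium, potassium and chloride carrier of the kidney, was at 0.605, 3.41 and 0.2003 CPM in chick lateral plate, 0, 0.509 and 0.123 CPM in somatopleure and 10.1, 16.2 and 33.2 CPM in splanchnopleure. All splanchnopleure libraries were above all others. It rose against lateral plate (3.77 ± 0.74, adjusted p = 0.0074) and was lower in somatopleure than in splanchnopleure (-6.46 ± 0.94, adjusted p = 0.000852), and both held. In emu SLC12A1 was between 0.377 and 2.06 CPM in all libraries and was not called. Of 5 listed nephric markers the table holds 2, EMX2 and GATA3, whose sum was 33.4 to 45.1 CPM in chick lateral plate and 3.31, 31.4 and 4.61 CPM in splanchnopleure 50, 61 and 64, the libraries with 10.1, 16.2 and 33.2 CPM of SLC12A1. Their part in the result was not tested.

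The widespread relative SLC12A2 was higher in chick somatopleure (134, 174 and 139.8 CPM) than in splanchnopleure (80.4, 110.2 and 109 CPM, 0.58 ± 0.14, adjusted p = 0.0161), a call lost without somatopleure 60 (adjusted p = 0.0611). In emu SLC4A2, a chloride and bicarbonate exchanger, was at 30.2, 44.7 and 35.5 CPM in lateral plate and 89.9 and 67.5 CPM in splanchnopleure, where it rose (1.10 ± 0.19, adjusted p = 0.00684), and this was lost without splanchnopleure 6 (adjusted p = 0.0687).

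Among the metal carriers SLC40A1 was high in emu splanchnopleure. SLC40A1 encodes ferroportin, the only known iron exporter of vertebrate cells. Of 21 metal carriers tested in chick, 1 rose and 1 fell in somatopleure against lateral plate (9.52%, beside 9.8% of all genes), 0 rose and 2 fell in splanchnopleure against lateral plate (9.52%, beside 16.9%), and 1 was higher and 1 lower in somatopleure than in splanchnopleure (9.52%, beside 19.1%). Of 22 tested in emu, 1 rose and 1 fell in splanchnopleure against lateral plate (9.09%, beside 20.6%), and 0 were higher and 2 lower in somatopleure than in splanchnopleure (9.09%, beside 13.4%).

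SLC40A1 was at 32.8, 42.8 and 43.5 CPM in emu lateral plate, 26.6, 26.8 and 27.6 CPM in somatopleure and 150.1 and 117 CPM in splanchnopleure. It rose in splanchnopleure against lateral plate (1.75 ± 0.17, adjusted p = 0.00167) and was lower in somatopleure than in splanchnopleure (-2.30 ± 0.17, adjusted p = 0.00142), and both held. In chick it was at 39.6, 35.7 and 24.03, then 36.9, 29.7 and 29.8, then 37.4, 34.6 and 46.9 CPM, with overlapping tissues and no call. Both species differences were called and held: -1.51 ± 0.28, adjusted p = 0.00541 in splanchnopleure against lateral plate, and 2.0482 ± 0.28, adjusted p = 0.000876 in somatopleure against splanchnopleure. The sum of the blood markers KLF1 and GFI1B was 3.57 to 11.8 CPM in emu lateral plate and 8.12 to 14.4 CPM in splanchnopleure, and its part in the result was not tested.

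SLC39A10, a zinc importer, was at 41.03, 49.2 and 45.9 CPM in chick lateral plate, 74.9, 76.03 and 69.4 CPM in somatopleure and 41.6, 49.1 and 42.1 CPM in splanchnopleure. Somatopleure lay above both other tissues without overlap. It was higher in somatopleure than in lateral plate (0.70 ± 0.12, adjusted p = 0.0032) and than in splanchnopleure (0.73 ± 0.12, adjusted p = 0.00137), and both held. Emu SLC39A10 was not called, with 57.8, 52.2 and 70.6 CPM in somatopleure and 53.8, 53.3 and 48.4 CPM in lateral plate.

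Both SLC25A37 and SLC39A8 were set apart in chick somatopleure 15, the library with the high blood marker sum. SLC25A37, which encodes mitoferrin, the mitochondrial iron importer of developing red cells, was at 90.1, 21.5 and 23.6 CPM in chick somatopleure 15, 60 and 63 and at 5.81, 8.01 and 7.81 CPM in lateral plate. It rose (2.65 ± 0.51, adjusted p = 0.00714), and the call held, also without somatopleure 15. SLC39A8, a carrier of zinc, iron and manganese, was at 41.9, 2.42 and 3.69 CPM in the same somatopleure libraries and 5.81, 7.56 and 10.2 CPM in lateral plate. With all libraries it did not pass the test (1.05 ± 0.82, adjusted p = 0.478), and without somatopleure 15 it was lower in somatopleure (-1.33, adjusted p = 0.0226). The part of blood cells in these values was not tested.

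Of the mitochondrial carriers, all 28 were tested in each species. In chick 1 rose and 1 fell in somatopleure against lateral plate (7.14%, beside 9.8% of all genes), 0 rose and 2 fell in splanchnopleure against lateral plate (7.14%, beside 16.9%), and 2 were higher and 1 lower in somatopleure than in splanchnopleure (10.7%, beside 19.1%). In emu 0 rose and 3 fell in splanchnopleure against lateral plate (10.7%, beside 20.6%), and 1 was higher and 1 lower in somatopleure than in splanchnopleure (7.14%, beside 13.4%). The fall in chick somatopleure was that of SLC25A36, which carries pyrimidine nucleotides into mitochondria.

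SLC25A36 was at 259.7, 204 and 209 CPM in chick lateral plate, 70.8, 91.3 and 83.2 CPM in somatopleure and 224, 245 and 233 CPM in splanchnopleure. In emu it was at 117, 101 and 87.6, then 104, 109 and 97.2, then 91.8 and 80.5 CPM. Chick somatopleure was below every other chick library, with 91.3 CPM at most against at least 204 CPM, and the emu lateral plate and somatopleure overlapped. It was lower in chick somatopleure than in lateral plate (-1.46 ± 0.12, adjusted p = 4.40e-05) and than in splanchnopleure (-1.52 ± 0.12, adjusted p = 2.00e-05), and both held. Neither emu comparison passed the test (0.02 and 0.26). The species differences were -1.44 ± 0.18, adjusted p = 0.00118 and -1.73 ± 0.20, adjusted p = 0.00025, in the same order, and both held.

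SLC25A13, the aspartate and glutamate carrier citrin, was at 108, 112 and 119 CPM in chick somatopleure and 83.7, 84.8 and 85.2 CPM in splanchnopleure, and in emu at 68.4, 79.5 and 61.7 CPM and 112 and 96.1 CPM. Somatopleure was thus above splanchnopleure in every chick library and below it in every emu library. It was higher in chick somatopleure (0.42 ± 0.08, adjusted p = 0.00577), which held, and lower in emu somatopleure (-0.58 ± 0.14, adjusted p = 0.0326), a call lost without any 1 of somatopleure 13 and 5 and splanchnopleure 6 (adjusted p = 0.0591 to 0.232). The species difference was called (1.04 ± 0.16, adjusted p = 0.0018) and held. SLC25A22, a mitochondrial glutamate carrier, fell in chick splanchnopleure against lateral plate (-0.58 ± 0.12, adjusted p = 0.01), which held. The abundant phosphate carrier SLC25A3 and the adenine nucleotide carriers SLC25A4 and SLC25A6 were called in no tissue comparison of either species.

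In the remaining classes SLC44A5, SLC22A23 and SLC27A4 had calls that held. SLC44A5, of the choline carrier-like family, was at 28.7, 24.5 and 34.4 CPM in chick lateral plate, 49.6, 50.3 and 72.4 CPM in somatopleure and 41.5, 43.3 and 41.6 CPM in splanchnopleure, and in emu at 19.1, 26.1 and 24.5, then 61.9, 41.6 and 33.7, then 66.1 and 84.6 CPM. In both species every somatopleure and splanchnopleure library was above every lateral plate library. It rose in chick somatopleure (0.98 ± 0.17, adjusted p = 0.00477) and in emu splanchnopleure (1.70 ± 0.26, adjusted p = 0.00473) against lateral plate, and both held, while chick splanchnopleure (0.53 ± 0.18, adjusted p = 0.0602) and emu somatopleure (0.98 ± 0.24, adjusted p = 0.301) did not pass edgeR's test. SLC22A23, an organic ion carrier with no established substrate, was at 23.1, 27.1 and 17.8 CPM in chick lateral plate and 11.98, 11.1 and 10.8 CPM in somatopleure, and fell (-1.01 ± 0.18, adjusted p = 0.00548), which held. SLC27A4, a fatty acid carrier, was at 133, 148 and 129 CPM in chick lateral plate and 98.3, 99.1 and 101 CPM in splanchnopleure, and fell there (-0.46 ± 0.09, adjusted p = 0.0071), which held. SLC19A1, the reduced folate carrier, fell in chick splanchnopleure against lateral plate (-0.37 ± 0.10, adjusted p = 0.0286), a call lost without any 1 of lateral plate 30 and 32 and splanchnopleure 50, 61 and 64 (adjusted p = 0.0594 to 0.112).

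Of the smaller classes, 4 vesicular carriers were tested in chick and 0 rose and 2 fell in somatopleure against lateral plate (50%, beside 9.8% of all genes). They were the nucleotide carrier SLC17A9 (-1.02 ± 0.27, adjusted p = 0.0341) and the monoamine carrier SLC18A2 (-1.69 ± 0.41, adjusted p = 0.026). The call of SLC17A9 was lost without any 1 of lateral plate 30, 31 and 32 and somatopleure 15, 60 and 63 (adjusted p = 0.0582 to 0.112), and that of SLC18A2 without any 1 of lateral plate 30 and 31 and somatopleure 15, 60 and 63 (adjusted p = 0.0623 to 0.126). In chick splanchnopleure against lateral plate 1 vesicular carrier rose and 0 fell (25%, beside 16.9%). Between the chick layers 0 were higher and 2 lower in somatopleure (50%, beside 19.1%). None of these vesicular calls held. The phosphate carrier SLC34A2 fell in both chick layers against lateral plate, at 5.69, 1.93 and 4.61 CPM in lateral plate, 0.499, 0.255 and 0.985 CPM in somatopleure and 1.05, 1.22 and 1.18 CPM in splanchnopleure (-2.77 ± 0.56, adjusted p = 0.00964 in somatopleure, and -1.81 ± 0.52, adjusted p = 0.0366 in splanchnopleure). These calls were lost without lateral plate 30 (adjusted p = 0.0547) in the former comparison and without any 1 of lateral plate 30 and 32 and splanchnopleure 50, 61 and 64 (adjusted p = 0.0773 to 0.16) in the latter. The 3 nucleotide sugar carriers were called in no tissue comparison. A pair of amino acid carriers with calls that held was chosen after its values were seen: SLC7A1, a cationic amino acid carrier, fell in chick somatopleure against lateral plate (-0.55 ± 0.10, adjusted p = 0.0066), and SLC43A2, a carrier of large neutral amino acids, rose in chick splanchnopleure against lateral plate (0.94 ± 0.19, adjusted p = 0.009).

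Counts may be shared between neighbours. By the RefSeq annotation of a later chicken assembly, 58 of the 184 members with a place overlap another protein-coding gene, and the sources used here do not say whether strand was used in counting. Reads of both genes could then not be told apart, which makes values of these members uncertain. They include SLC2A1, SLC2A5, SLC3A1, SLC5A1, SLC5A9, SLC7A1, SLC7A9, SLC16A6, SLC16A14, SLC19A1, SLC22A23, SLC25A36, SLC38A3, SLC39A8 and SLC44A5.

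**Figure D4:**
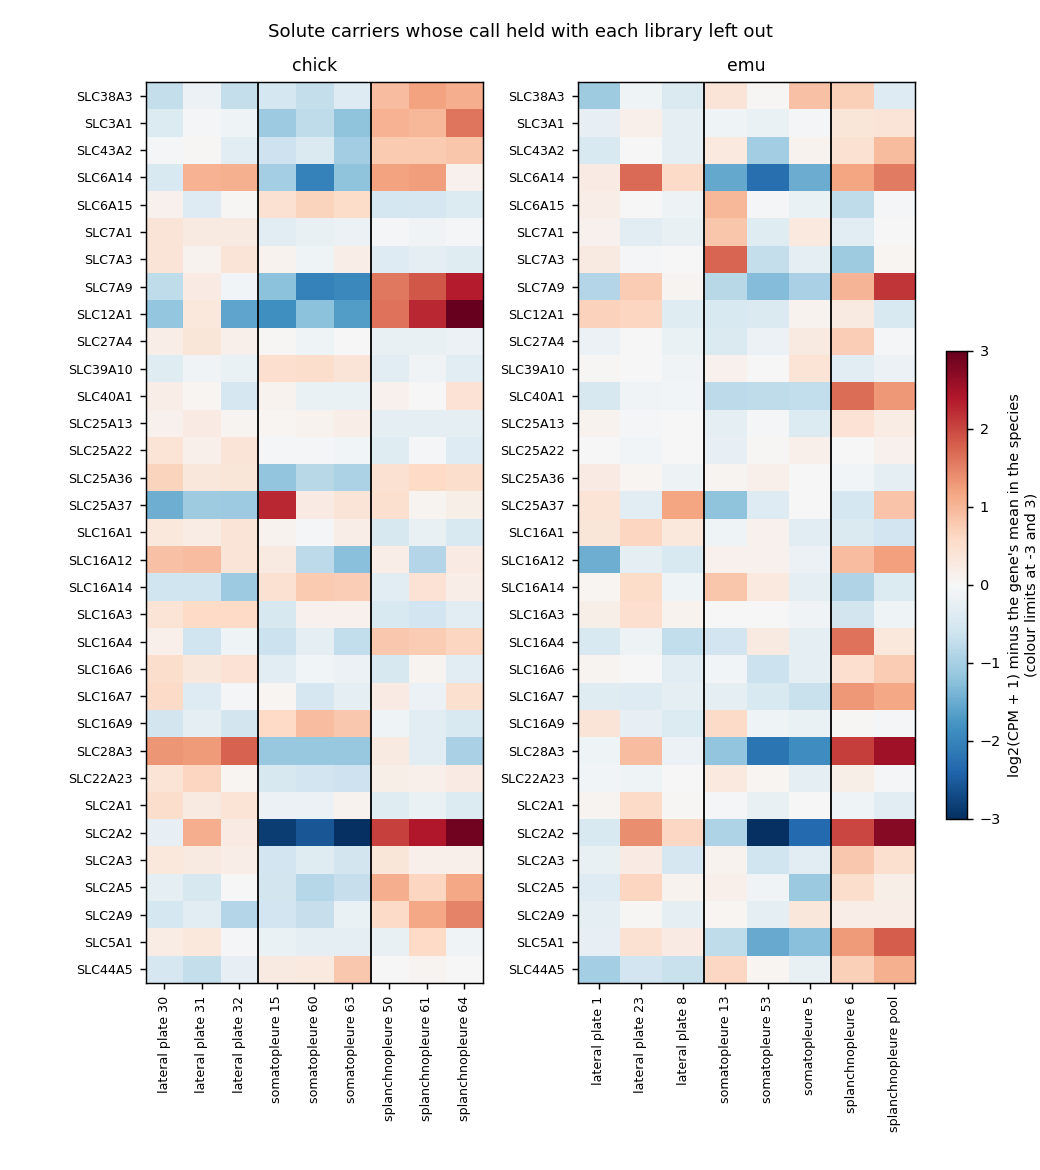
Levels of 33 solute carriers whose call held in at least 1 tissue comparison of either species, as log2(CPM + 1) minus the gene's mean over the libraries of that species (colour scale, limits at -3 and 3); columns are libraries, rows are carriers ordered by class. SLC2A2, SLC7A9 and SLC6A14 are low in the somatopleure columns of both species, and SLC12A1 is high in the splanchnopleure columns of chick but not of emu.

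Across the species, 75 members were called in at least 1 tissue comparison (40.5%, beside 39.3% of all genes), 53 in chick (32.7%, beside 28.9%) and 36 in emu (19.8%, beside 23.2%). Of the 159 tested in each, 14 were called in both (8.81%, beside 10.9%). In splanchnopleure against lateral plate 4 of the 159 members tested in both species were called in the same direction, and SLC16A1, SLC16A3 and SLC38A1 were lower in each. That is 13.3% of the chick calls and 16% of the emu calls, where the corresponding shares over all genes were 33.8% and 27.3%. In somatopleure against splanchnopleure 4 were lower in both species (SLC28A3, SLC2A2, SLC6A14 and SLC7A9), which is 12.9% of the chick and 23.5% of the emu calls, beside 26.1% and 37.5% over all genes. Opposite calls were made for SLC16A6 and SLC28A3 in the former comparison and for SLC25A13 in the latter. Over the 159 members the Pearson correlation of the chick and emu log2 fold changes was 0.51 in somatopleure against lateral plate. It was 0.19 in splanchnopleure against lateral plate and 0.55 in somatopleure against splanchnopleure. Over all genes it was 0.24, 0.40 and 0.49 in the same order. The Spearman rank correlation over the members was 0.15, 0.25 and 0.38 in that order, below the Pearson value in both somatopleure comparisons. Rank correlations over all genes are not given here, so a closer match of the species in the members than in all genes is not shown by rank. Genes are not independent replicates, and comparisons within a species share libraries.

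The tissue effect itself differed between species for some of the members. In the test of the difference over all 185, 4 were called in somatopleure against lateral plate (2.16%, beside 2.36% of all genes), 16 in splanchnopleure against lateral plate (8.65%, beside 8.24%) and 16 in somatopleure against splanchnopleure (8.65%, beside 4.5%). By direction, 1 difference was positive and 3 negative in the first comparison (0.541% and 1.62%, beside 0.841% and 1.52% of all genes). In the second 3 were positive and 13 negative (1.62% and 7.03%, beside 3.68% and 4.56%). In the third 11 were positive and 5 negative (5.95% and 2.7%, beside 2.47% and 2.03%). Of the called differences, 2, 4 and 5 held, among them the differences given above for SLC25A36, SLC16A12, SLC16A6, SLC28A3, SLC40A1, SLC25A13, SLC3A1 and SLC5A1. The first count was 2 without chick lateral plate 30. The second was 8 without chick lateral plate 30, 10 without chick lateral plate 32, 9 without chick splanchnopleure 64, 7 without emu lateral plate 1 and 4 without emu splanchnopleure 6. The third was 8 without chick somatopleure 63, 10 without chick splanchnopleure 50, 9 without chick splanchnopleure 64, 10 without emu somatopleure 53 and 6 without emu splanchnopleure 6.

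**Figure D5:**
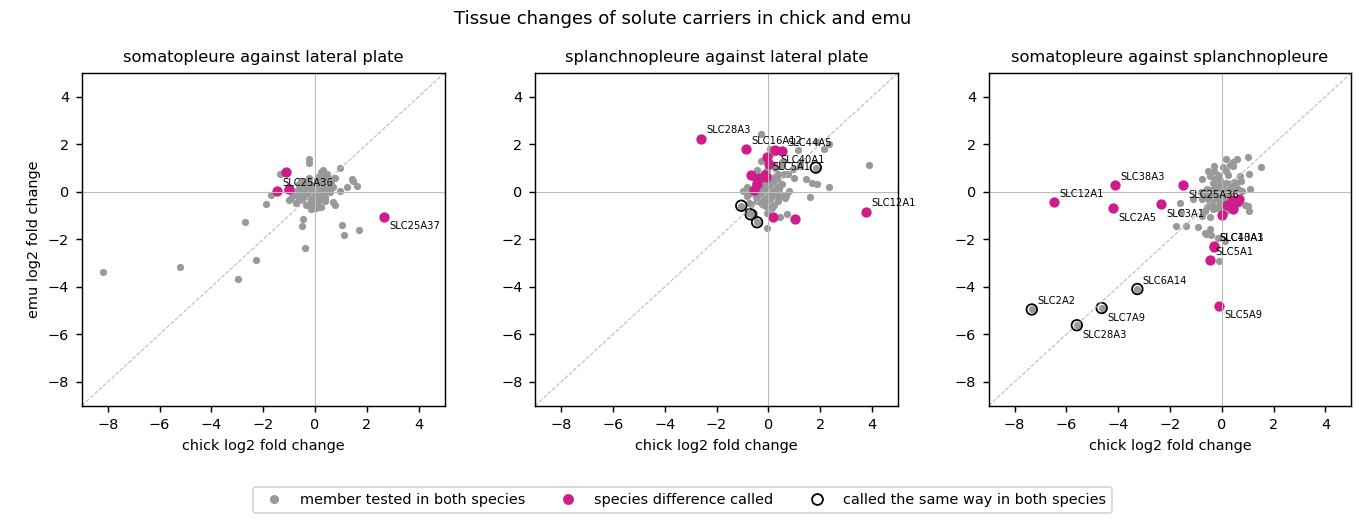
Log2 fold change in chick (horizontal axis) and emu (vertical axis) of the 159 solute carrier members tested in both species, for 3 tissue comparisons. Pink points had a called species difference, and circles were called in the same direction in both species. SLC2A2, SLC7A9, SLC6A14 and SLC28A3 lie at the lower left of the right panel, and SLC28A3 at the upper left of the middle panel.

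Transport genes outside the solute carriers were also counted. Of 27 ABC transporters tested in chick, 1 rose and 6 fell in somatopleure against lateral plate (25.9%, beside 9.8% of all genes), 4 rose and 3 fell in splanchnopleure against lateral plate (25.9%, beside 16.9%), and 1 was higher and 3 lower in somatopleure than in splanchnopleure (14.8%, beside 19.1%). Over the fits that left out 1 library the falls in chick somatopleure numbered 2 to 6, with the fewest calls without lateral plate 32. Of 30 in emu, 4 rose and 1 fell in splanchnopleure against lateral plate (16.7%, beside 20.6%), and 0 were higher and 3 lower in somatopleure than in splanchnopleure (10%, beside 13.4%). None of these emu calls was made without splanchnopleure 6. ABCC3, an exporter of organic anions, was lower in somatopleure than in splanchnopleure in chick (-1.15 ± 0.10, adjusted p = 2.54e-05), which held, and in emu (-0.69 ± 0.18, adjusted p = 0.0403), a call lost in each of the 5 fits that left out 1 library (adjusted p = 0.0568 to 0.154).

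Of 4 aquaporins tested in chick, 2 rose and 0 fell in splanchnopleure against lateral plate (50%, beside 16.9% of all genes). Between the chick layers 0 were higher and 3 lower in somatopleure (75%, beside 19.1%). Of 5 in emu, 1 rose and 1 was lower in the same comparisons (20% in each, beside 20.6% and 13.4%). AQP1, a water channel, was lower in somatopleure than in splanchnopleure in chick (-3.13 ± 0.49, adjusted p = 0.00137), which held, and in emu (-5.59 ± 0.81, adjusted p = 0.0049), a call lost without splanchnopleure 6 (adjusted p = 0.0502). AQP8, another water channel, was lower there in chick (-6.65 ± 1.09, adjusted p = 0.00316), which held. The remaining lower call in chick was lost in 5 fits (adjusted p = 0.0785 to 0.142). The chick rise of AQP1 was lost without splanchnopleure 64 (adjusted p = 0.0602) and that of AQP8 without lateral plate 30 (adjusted p = 0.0513). Of 10 ion and copper pumps tested in chick, 3 rose and 0 fell in splanchnopleure against lateral plate (30%, beside 16.9% of all genes), and of 11 in emu 0 rose and 2 fell (18.2%, beside 20.6%). The rises of ATP2A3 and ATP2B2, which pump calcium, held, and that of ATP7B, which pumps copper, was lost without any 1 of lateral plate 30 and 32 and splanchnopleure 64 (adjusted p = 0.0738 to 0.1). The emu falls of ATP1B1 and ATP1B3, subunits of the sodium pump, were lost in each of the 5 fits that left out 1 library (adjusted p = 0.0711 to 0.252, and 0.0543 to 0.238).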

How the data were processed

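Bulk RNA-seq of chick and emu forelimb-level tissue was analysed from the gene counts that the authors deposited, whole-number counts per gene symbol, for 17 of the 40 labelled libraries (9 chick and 8 emu). Per the labels' protocols, RNA was taken on PicoPure columns and libraries were made with Kappa reagents. Per the submitters' processing notes, STAR, featureCounts, DESeq and the build galGal4 were used, and the sources used here do not give the genome used for emu reads. Tables of later stages (HH18) carry numbered identifiers that could not be paired with symbols and were not used.

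Counts were fitted with edgeR 4.0.16 (R 4.3.3), with TMM scaling, a filter on low counts (minimum count 10, minimum total 15), 1 coefficient per tissue, and 1 fit per species. It left 10071 genes in chick and 10640 in emu. Differences between species were tested as the chick contrast minus the emu contrast in a fit of all 17 libraries and 11063 genes. Tests were two-sided, with Benjamini-Hochberg adjustment over all genes tested. Libraries held 5061393 to 8348865 counts in chick and 7350786 to 8601471 in emu, and the biological coefficient of variation was 0.168 and 0.221. Replicates of a tissue differed by more than sampling noise (chi-square per degree of freedom of at least 3.95). Floors of 3 counts cover counting error only.

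The members, their classes and the marker and transport lists were chosen with earlier results of these data known. Named in each comparison were up to 8 called members with the largest rise and up to 8 with the largest fall, among those with a mean of at least 5 counts per library in the higher tissue and no overlap between the tissues, besides a list of 21 common carriers, of which 15 are members (SLC1A5, SLC3A2, SLC7A5, SLC38A2, SLC7A11 and SLC6A8 were not analysed here), and members of classes and of species differences. Symbols were matched to RefSeq: 182 are current, 2 are older and 1 is neither. The scripts were tested on simulated data. Alternatives were RLE scaling, no filter, DESeq2 1.42.0, fits of only the tissues compared, and leaving out each library or the emu libraries with a differing stage label. Some genes that the naming rule or the marker lists would include are not reported here. The search for promoter motifs was not run.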

Additional observations from a re-analysis of the deposited data

Results flagged for a closer look

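The tissue effect differed between chick and emu, by the edgeR test of the difference itself, in 33 cases given here, which involve 25 solute carriers. Values are the chick log2 fold change minus the emu one. Each was refitted without each library of the tissues compared, in 12 fits for somatopleure against lateral plate and 11 for the other comparisons, and a difference is said to be lost where a fit no longer called it.

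In somatopleure against lateral plate the difference was -1.44 for SLC25A36, which held in every fit. It was -1.09 for SLC22A23, lost in 6 fits (adjusted p up to 0.0624), and 3.74 for SLC25A37, lost without any 1 of chick lateral plate 30 and emu lateral plate 8 (adjusted p = 0.0513 to 0.0587).

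In splanchnopleure against lateral plate the negative differences that held were -4.85 for SLC28A3, -2.69 for SLC16A12, -1.51 for SLC40A1 and -1.38 for SLC16A6. Those of -0.95 for SLC19A1 (adjusted p = 0.142) and -0.78 for SLC25A13 (adjusted p = 0.0675) were lost without emu splanchnopleure 6. Further negative differences were -1.52 for SLC5A1, lost in 9 fits (adjusted p up to 0.148), -1.18 for SLC44A5, lost in 9 fits (adjusted p up to 0.111), -0.999 for SLC27A4, lost in 8 fits (adjusted p up to 0.284), -0.85 for SLC25A14, lost in 9 fits (adjusted p up to 0.122), and -0.68 for SLC25A22, lost in 9 fits (adjusted p up to 0.109). None of the 3 positive differences held: 1.21 for SLC38A6, lost in 8 fits (adjusted p up to 0.17), 2.16 for SLC16A14, lost in 8 fits (adjusted p up to 0.187), and 4.597 for SLC12A1, lost in 7 fits (adjusted p up to 0.104).

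In somatopleure against splanchnopleure 5 differences were negative, of which -1.75 for SLC3A1 and -1.73 for SLC25A36 held. The others were -5.98 for SLC12A1, lost in 6 fits (adjusted p up to 0.0905), -4.36 for SLC38A3, lost in 9 fits (adjusted p up to 0.0953), and -3.49 for SLC2A5, lost in 8 fits (adjusted p up to 0.0852). Of the 11 positive differences, 1.04 for SLC25A13, 2.048 for SLC40A1 and 2.48 for SLC5A1 held. That of 1.07 for SLC12A2 was lost without emu splanchnopleure 6 (adjusted p = 0.0842) and that of 1.04 for SLC16A6 without the emu splanchnopleure pool (adjusted p = 0.0673). The rest were 0.82 for SLC19A1, lost in 8 fits (adjusted p up to 0.281), 0.85 for SLC20A2, lost in 9 fits (adjusted p up to 0.175), 1.04 for SLC26A5, lost in 8 fits (adjusted p up to 0.273), 1.21 for SLC44A5, lost in 8 fits (adjusted p up to 0.123), 2.06 for SLC13A3, lost in 8 fits (adjusted p up to 0.21), and 4.71 for SLC5A9, lost in 4 fits (adjusted p up to 0.105).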

How the results depend on the processing

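RLE scaling, no filter on low counts and the other alternatives kept the number of called members within 1.5 times the reported one in all comparisons, except as follows. DESeq2 called 6 members in emu somatopleure against lateral plate (3.3%, beside 1.32% of all genes). It called 29 in emu somatopleure against splanchnopleure and 10 species differences in somatopleure against lateral plate. Shares over all genes in the same fit are not given for the other counts of this section. A change particular to the members is therefore not shown by them. A fit of only the tissues compared called 12 in emu somatopleure against splanchnopleure. Without the emu libraries whose stage label differs, 9 were called in emu splanchnopleure against lateral plate, and 9 and 10 species differences in splanchnopleure against lateral plate and in somatopleure against splanchnopleure; the cause was not tested. With only genes that pass the filter in each species, an alternative chosen after seeing the data, species differences numbered 4, 16 and 13. The fits of marker and other transport genes without 1 library were also chosen after seeing the data. RLE scaling moved the median of all genes by at most 0.03 on the log2 scale.

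Leaving out 1 library gave 16 to 24 called members in chick somatopleure against lateral plate, 15 to 26 in chick splanchnopleure against lateral plate and 22 to 39 in chick somatopleure against splanchnopleure. In emu the ranges were 0 to 0, 6 to 20 and 7 to 25. For the species differences they were 2 to 6, 4 to 13 and 6 to 19. Among values of named genes, 7846 kept their side of the threshold, 470 were no longer called and 83 became called. Those 7846 may include values whose sign changed where neither fit called them. A sign change with a call in either fit was counted as reversed. There was 1, that of SLC39A8 in chick somatopleure against lateral plate without somatopleure 15 (-1.33, in a range of -1.33 to 1.56 over the left-out libraries). No paired analysis was possible because the numbers of the early libraries are not shared between tissues. Depth limits members of few counts, 23 of which did not pass the filter in chick and 3 in emu.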
